A study of Homo sapiens with 5 samples.

Results

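The genes described are the matrix metalloproteinases (MMP), the ADAMTS proteases and the tissue inhibitors of metalloproteinases (TIMP), read in a list of TEAD4 binding sites of LX-2 cells. They are the protein-coding genes of GENCODE whose symbol is MMP, ADAMTS or TIMP followed by a number, which gave 23 MMP, 19 ADAMTS and 4 TIMP genes, 46 of 20007 protein-coding genes in all. All samples came from the LX-2 line, immortal hepatic stellate cells of human origin, and all were labelled with the same treatment, DMSO, a solvent. TEAD4 was immunoprecipitated from 3 biological replicates, with 2 input samples. The authors left out replicate 2, because by their account only replicates 1 and 3 were concordant enough. They made a single list of 21113 peaks from replicates 1 and 3. The list has no value per replicate, so depth and spread between replicates are unknown, conditions cannot be compared, and no p-value is given. Intervals are Wilson 95% intervals and cover counting error over genes or peaks only. A peak list does not measure RNA, so neither the identity of the cells nor the level of any of these genes was checked.

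TEAD4 is a DNA-binding factor that acts with the co-activators YAP and TAZ and often lies beside AP-1 on enhancers. MMPs cut collagens and other matrix proteins, ADAMTS proteases trim procollagens and proteoglycans, and TIMPs bind MMPs and some ADAMTS proteases and block them. In the liver, hepatic stellate cells are a main source of these enzymes and inhibitors, and the balance between them sets how fast scar matrix is removed.

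A peak was assigned to a gene when its summit lay inside the gene record or within 50 kb of any annotated transcription start site (TSS) of that gene. Of the 46 genes, 29 had at least 1 peak (63.0%, interval 48.6 to 75.5%), beside 56.2% of all protein-coding genes. On this measure the intervals of the 3 families were wide and overlapped. A peak was found at 15 of 23 MMP genes (65.2%, 44.9 to 81.2%). The counts were 11 of 19 for ADAMTS genes (57.9%, 36.3 to 76.9%) and 3 of 4 for TIMP genes (75%, 30.1 to 95.4%). All 4 intervals held the share of the other protein-coding genes, 11216 of 19961 (56.2%). With 10 kb in place of 50 kb the order turned, at 32.6% of the 46 genes and 34.0% of the others. The families differed more in the number and the place of their peaks. The 29 genes held 87 different peaks, and 33 of these lay at ADAMTS12 or ADAMTS16.

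The binding sites that carry a motif are shown first, because motif, distance and signal value are described below for the same peaks. The motif searched for TEAD was ACATTCC, and a match on either strand counted. For AP-1 the letters were TGACTCA, again with a match on either strand. The first 5 sequences are 61 bases centred on the summit of the strongest peak of a described gene with a match in that window, on the plus strand of hg38, with the motif in capitals as it reads on that strand.
MMP2, intron, chr16:55471590-55471650: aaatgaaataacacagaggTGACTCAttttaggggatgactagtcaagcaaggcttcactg
ADAMTS12, intron, chr5:33789004-33789064: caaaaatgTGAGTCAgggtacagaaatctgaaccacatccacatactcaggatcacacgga
ADAMTS16, intron, chr5:5187157-5187217: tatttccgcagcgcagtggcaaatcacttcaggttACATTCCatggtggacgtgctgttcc
TIMP2, intron, chr17:78879727-78879787: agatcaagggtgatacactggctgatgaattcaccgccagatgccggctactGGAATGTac
TIMP4, upstream of the gene, chr3:12193643-12193703: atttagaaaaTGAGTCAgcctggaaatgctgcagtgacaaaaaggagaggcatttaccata
In these single windows AP-1 is the motif for MMP2, ADAMTS12 and TIMP4, and TEAD that for ADAMTS16 and TIMP2. None of these 5 windows held both. Stronger peaks of ADAMTS16 and TIMP2 carried AP-1 within 100 bp of the summit, outside a window of 61 bases.

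A further sequence, chosen after its values were seen, is that of the bases within 100 bp of the summit of a peak upstream of MMP15 with both motifs.
MMP15, upstream, chr16:58011745-58011945: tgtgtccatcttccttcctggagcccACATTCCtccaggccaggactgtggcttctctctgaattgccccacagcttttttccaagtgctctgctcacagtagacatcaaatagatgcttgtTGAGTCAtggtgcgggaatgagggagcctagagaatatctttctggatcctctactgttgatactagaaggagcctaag
This window holds a TEAD match before an AP-1 match.

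Few of the summits lay at promoters. Within 2.5 kb of a TSS, 6 of the 46 genes had a summit (13.0%, 6.12 to 25.7%). This interval holds the 16.7% of all protein-coding genes. The 6 genes were MMP19, ADAMTS6, ADAMTS7, ADAMTS12, ADAMTS14 and TIMP2, with 8 summits among them. Inside the gene record, the count was 14 of 46 (30.4%, 19.1 to 44.8%), beside 25% of all protein-coding genes. For ADAMTS genes this share was 47.4% (27.3 to 68.3%), and for MMP genes 17.4% (6.98 to 37.1%). ADAMTS genes are long, with a median record of 172 kb against 14.7 kb for MMP genes, 33.6 kb for TIMP genes and 27.5 kb for other coding genes. Among genes over 100 kb, 7 of 10 ADAMTS genes (70%, 39.7 to 89.2%) and 60.5% of 3652 other coding genes held a summit inside the record. That interval holds the share of the others. Whether length accounts for the ADAMTS share was not tested.

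Of the MMP genes, MMP19, an enzyme of broad substrate range, was the single one with a summit at a promoter. Its peak lay 13 bp upstream of a TSS, with a signal value of 83.2 and an AP-1 motif within 100 bp of the summit. The signal value is the peak caller's measure of peak strength as deposited, in arbitrary units, with a median of 68.1 over all peaks.

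MMP2, the gelatinase A that cuts denatured collagen and basement membrane collagen, had 4 peaks. Signal values were 51.2, 59.9, 74.7 and 191. The strongest, which was also the nearest, lay 5.29 kb upstream of an internal TSS. It was 110 kb from the 5′ end of a gene record of 117 kb. All 4 were nearer to a TSS of MMP2 than to that of any other coding gene, and 3 were inside its record. MMP9, the other gelatinase, had 1 peak, and it was the strongest of any MMP gene, with a signal value of 219. This summit was 20.7 kb downstream of the TSS of MMP9 but 242 bp from a TSS of SLC12A5, so the 2 gelatinases differed in whether the peak could be tied to them by distance.

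The same held for most of the family. In 14 of 23 MMP gene and peak pairs another coding TSS was nearer, and in 8 of these 14 it was within 2.5 kb of the summit. By contrast the member itself was nearest in 54 of 56 ADAMTS pairs and 9 of 10 TIMP pairs, beside 54.8% of all gene and peak pairs of coding genes. These pairs are not independent. ADAMTS12 or ADAMTS16 made up 33 of the 56, and TIMP2 made up 6 of the 10. Counting a peak only for the gene with the nearest TSS left 6 MMP, 10 ADAMTS and 2 TIMP genes with a peak, 18 of 46 (39.1%), beside 32.8% of all protein-coding genes. The 6 MMP genes were MMP2, MMP10, MMP19, MMP20, MMP24 and MMP25.

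The membrane-type MMPs, which act at the cell surface, had a peak in 5 of 6 genes (83.3%, 43.6 to 97.0%). That interval holds the share of all protein-coding genes (56.2%). The peaks lay chiefly at the promoters of neighbours. For MMP14, the activator of pro-MMP2, the only peak (signal value 39.0) lay 29.7 kb from its TSS and 406 bp from that of LRP10. For MMP15 the peak with both motifs (128) was 1.18 kb from a TSS of USB1, and for MMP17 the single peak (49.1) was 868 bp from that of SFSWAP. MMP25 had 4 peaks with signal values of 34.1, 43.0, 189 and 191. The 2 strong ones, both with AP-1, lay 23.6 and 25.1 kb upstream of MMP25 and within 1.44 kb of TSSs of HCFC1R1 and TNFRSF12A, whereas the nearest to MMP25 itself (43.0) was 2.79 kb from its TSS in a UTR. MMP24 had 2 intronic peaks, of 44.7 and 107, with the weaker 5.99 kb from its TSS. MMP16 had none.

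The secreted collagenases and stromelysins shared 1 peak. Of the MMP genes, 9 lie side by side on chromosome 11 (MMP1, MMP3, MMP7, MMP8, MMP10, MMP12, MMP13, MMP20 and MMP27), and this whole cluster held 3 peaks. A single summit between them (signal value 76.2, neither motif) fell within 50 kb of MMP10, MMP8 and MMP1, at 18.8, 34.8 and 31.0 kb, and counted for all 3. The collagenase MMP13 and the stromelysin MMP3 had no peak, their nearest summit being this same one at 193.9 and 76.9 kb. In the same cluster the matrilysin MMP7 had a peak of 61.03, nearer to TMEM123, and MMP20, an enzyme of tooth enamel, an intronic one of 48.4 with a TEAD motif. Elsewhere, MMP26 had 1 peak (72.3) and MMP28 had 2 (42.8 and 64.1), the stronger 46 bp from a TSS of RASL10B. MMP11, MMP12, MMP21, MMP23B and MMP27 had none.

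ADAMTS12, a protease of cartilage oligomeric matrix protein, held the most peaks. Its 19 peaks ran over 198 kb of chr5:33523535-33892019 and its upstream flank, 15 in introns and 4 upstream of the gene. At least as many peaks were assigned to 23 coding genes in all (0.115%), and to 0.628% of the 3665 coding genes over 100 kb. Signal values ranged from 34.8 to 394 with a median of 87.3, and 18 of the 19 peaks were nearest to ADAMTS12. The strongest lay in an intron 5.81 kb downstream of an internal TSS, and the next (354, the AP-1 sequence shown above) 51.3 kb downstream. At the 5′ end of the gene, summits at 229 and 944 bp upstream had signal values of 34.8 and 199. Some of these peaks overlap: merged, they formed 17 regions.

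ADAMTS16 held 14 peaks over 190 kb, 13 in introns and 1 upstream. None was within 2.5 kb of a TSS, and the nearest (226, with AP-1) was 5.57 kb into the gene. The strongest, of 279, lay 72.0 kb downstream of an internal TSS and carried neither motif. At least 14 peaks were assigned to 75 coding genes (0.375%), and to 2.02% of those over 100 kb. ADAMTS6, known for a part in microfibril assembly, held 7, with signal values of 39.1 to 213, including 1 of 124 at 1.26 kb upstream of its 5′ end and 1 of 189 at 153 bp from an internal TSS. Its 2 weakest peaks were the 2 with a TEAD motif, one of them in a coding exon.

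These 3 genes, ADAMTS2 and ADAMTS19 all lie on chromosome 5, and together they held 43 of the 87 peaks. Chromosome 5 had 9.28 peaks per Mb against 6.84 over all chromosomes. Within 5 Mb to either side of its window, ADAMTS12 had 20.3 peaks per Mb against 45.4 inside it. The values were 10.8 and 60.9 for ADAMTS16 and 6.70 and 18.3 for ADAMTS6. These 3 genes were picked for their number of peaks, so a denser window than its flanks follows from that choice and is given as a description only. The flanks of ADAMTS12 and ADAMTS16 were above the density of chromosome 5, and those of ADAMTS6 below it.

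**Figure D1:**
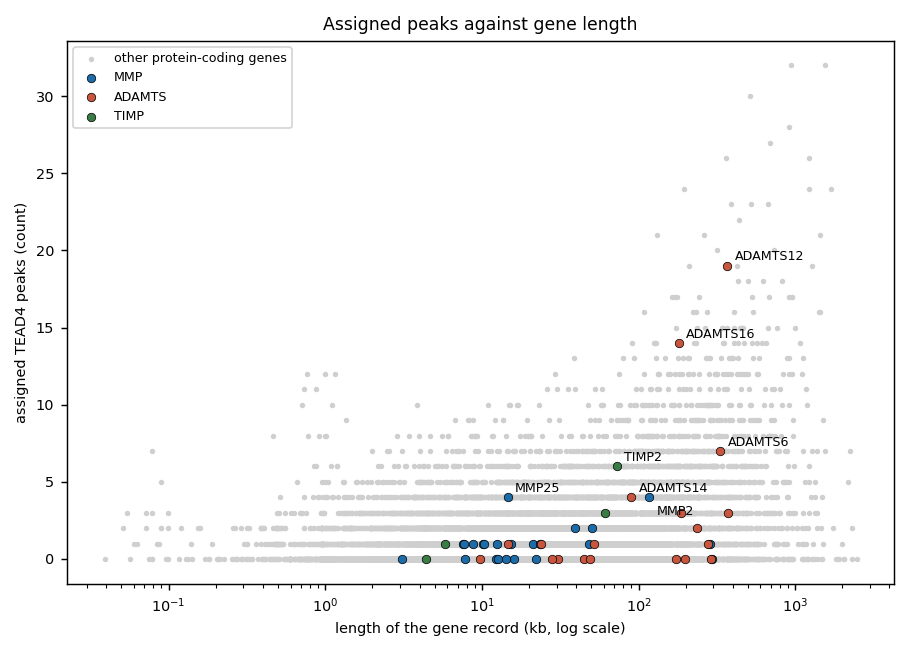
Assigned TEAD4 peaks (vertical axis, count) against the length of the gene record (horizontal axis, kb, log scale) for all protein-coding genes (grey) and the 3 families (coloured), with genes of 4 or more peaks named. ADAMTS12 and ADAMTS16 lie in the upper part of the grey points of their length, and most family members lie at 0 to 4 peaks.

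The procollagen N-proteinases, which remove the amino-terminal propeptide of fibrillar procollagens, had peaks in 2 of 3 genes. This share (66.7%, 20.8 to 93.9%) has an interval that holds the share of all genes. ADAMTS14 had 4, of 13.1, 45.4, 65.2 and 87.2, with that of 65.2 at 949 bp downstream of a TSS. The weakest was the single one of the 87 with a q-value over 0.05 (−log10 q of 0.995). ADAMTS2 had 2 intronic peaks, of 157 and 40.5, the latter with AP-1, at 79.7 and 69.3 kb from a TSS. ADAMTS3 had none, with the nearest summit 199 kb away.

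The hyalectanases cut aggrecan and versican. Of ADAMTS1, ADAMTS4, ADAMTS5, ADAMTS8, ADAMTS9, ADAMTS15 and ADAMTS20, only ADAMTS4 and ADAMTS8 had a peak (2 of 7; 28.6%, 8.22 to 64.1%, an interval that holds the share of all genes). That of ADAMTS4 (80.8) was 22.6 kb from its TSS and 731 bp from a TSS of B4GALT3. That of ADAMTS8 (161, with a TEAD motif) was 28.3 kb from its TSS and 64.9 kb from that of ADAMTS15, its neighbour. ADAMTS1 and ADAMTS5 lie next to each other on chromosome 21, and their nearest summits were just beyond the limit, at 54.1 kb (43.6, with AP-1) and 55.4 kb (39.4), each nearer to that gene than to any other coding TSS. The limit thus decided the count here. Just outside it were also ADAMTS13, which cuts von Willebrand factor, at 51.1 kb, and MMP27 at 56.0 kb, and the gene just inside was MMP17 at 44.1 kb.

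Among the remaining ADAMTS genes, ADAMTS18 had 3 intronic peaks close to each other, of 74.8, 200.8 and 396.6, and the weakest and the strongest were summits of the same interval. The last had the highest signal value of the 87, and 323 of all peaks (1.53%) were at least as strong. ADAMTS17 had 3 intronic peaks (45.6, 94.8 and 150), ADAMTS19 had 1 (96.0, with AP-1), and ADAMTS7, the closest relative of ADAMTS12, had 1 of 45.6 at 2.02 kb downstream of a TSS. ADAMTS10 had none.

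Of the inhibitors, TIMP2, which also takes part in the activation of pro-MMP2, had 6 peaks with signal values of 32.0, 33.0, 46.3, 58.2, 102 and 103. The strongest was 695 bp downstream of a TSS, in the first stretch of the gene. A TEAD motif was found at 2 of the 6 and AP-1 at another 2. TIMP3, which is bound to the matrix and blocks several ADAMTS proteases, had 3 peaks of like strength (92.9, 105 and 107), all upstream, at 40.1, 46.8 and 12.6 kb from its TSS, with no other coding TSS nearer and neither motif. TIMP4 had 1 weak peak (50.3, with AP-1) 34.8 kb upstream and nearer to SYN2. TIMP1 had none, its nearest summit being 67.7 kb away.

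**Figure D2:**
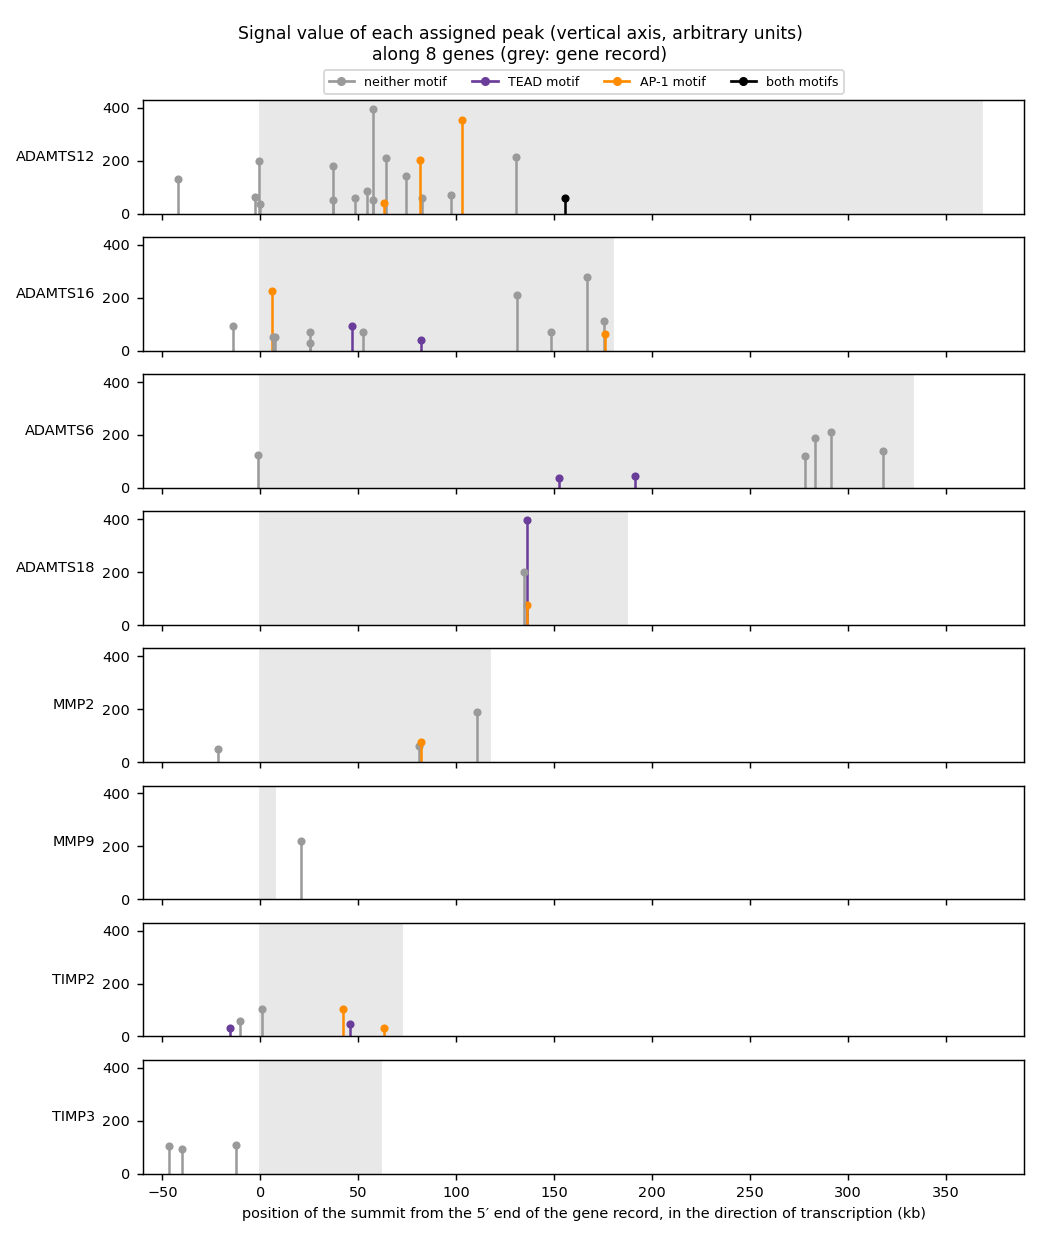
Signal value (vertical axis, arbitrary units) of each assigned peak against the position of its summit from the 5′ end of the gene record (horizontal axis, kb, in the direction of transcription) for 8 genes, with the gene record in grey and colours for the motif within 100 bp. ADAMTS12 has peaks through the first part of its record, ADAMTS18 has its 3 together, TIMP3 has all of its peaks upstream, and the MMP9 peak lies beyond the gene.

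Taken by signal value, the 87 peaks had a median of 74.8, with 68.1 for all peaks. Signal values over 200 were found in 12 of the 87 (13.8%, against 9.18% of all peaks). Of these 12, 11 were at ADAMTS genes, most of them at ADAMTS12 or ADAMTS16, and the other was the MMP9 peak beside SLC12A5.

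Within 100 bp of the summit the exact TEAD motif was found in 11 of 87 (12.6%, 7.21 to 21.2%), and in 22.97% of all peaks, with no test of the difference. Within 250 bp of the summit the shares were 19.5% (12.6 to 29.1%) and 28.0%. For the 72 peaks nearest to a TSS of the gene itself the share was 13.9% (7.72 to 23.7%). In both cases the interval held the share of all peaks. It lay below that share within 100 bp and in the other planned settings. The intervals treat peaks as independent, but 33 of the 87 lay at ADAMTS12 or ADAMTS16. The settings also reuse the same peaks, so they are not separate evidence. Within 50 bp the shares were 8.05% (3.95 to 15.7%) and 20.1%. For peaks above the median signal value they were 8% (3.15 to 18.8%) and 27.9%, and for those with the highest IDR score 7.58% (3.28 to 16.5%) and 24.6%. With the last 6 bases of the motif alone (CATTCC) the values were 46.0% and 46.8%, close to each other. This choice was made after the share with the full motif was seen. AP-1 was found in 19 of 87 (21.8%, 14.5 to 31.6%) and in 25.4% of all peaks. Neither motif was found in 59 (67.8%; all peaks 56.1%), and both in 2, at MMP15 and ADAMTS12. Among the 87 peaks, the median signal value was 46.4 in the 9 with TEAD alone, 74.8 in the 17 with AP-1 alone and 80.8 in the 59 with neither. Over all peaks the order was another, with 80.4, 68.6 and 62.9. The 9 member peaks with TEAD alone were few and ranged from 32.0 to 396.6, and the difference in order was not tested. Of the 14 peaks of ADAMTS16 2 carried a TEAD motif, and of the 19 of ADAMTS12 1.

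In the RefSeq table of promoters (GRCh38, 250 bases before to 50 after the start), 27 of the 46 genes were matched, with 28 promoters. MMP19 was not among the 27. No summit lay in any of the 28, and 1 peak of ADAMTS12, with its summit outside, overlapped that gene's promoter. The share of all coding promoters with a summit inside is not given here, so this count has no background. A TEAD motif was found in none of the 28 (interval 0 to 12.1%), beside 2.67% of 21613 coding promoters. An AP-1 motif was found in 1, that of MMP7 (0.633 to 17.7%), beside 4.03%. Both intervals held the share of coding promoters. The peak of MMP7 was 35.1 kb from its TSS, so motif and peak were apart.

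Other genes that regulate or resemble these enzymes were taken as a list of 24. Of these, 20 had a peak (83.3%, 64.1 to 93.3%), beside 56.2% of all protein-coding genes, and 9 (37.5%, 21.2 to 57.3%) had one within 2.5 kb of a TSS, beside 16.7%. Their median length, 90.5 kb, was above that of the other coding genes. RECK, a membrane-bound inhibitor of MMPs, had 5 peaks with a highest signal value of 238, and A2M, a broad plasma inhibitor of proteases, had none. FURIN, which activates the membrane-type MMPs, had 1. Of the ADAMTS-like proteins, which have no protease domain, THSD4 (a gene of 686 kb) had 27 peaks, ADAMTSL1 (1004 kb) 15 and ADAMTSL4 (11.6 kb) 8. ADAMTSL3 (386 kb) had 2, ADAMTSL2 (43.4 kb) 1 and ADAMTSL5 (8.58 kb) none. BMP1, the procollagen C-proteinase, had 3 peaks, 2 of them within 2.5 kb of a TSS, and its relative TLL1 had 7, the strongest at 429. PCSK6 and TLL2 were without one.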

How the data were processed

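TEAD4 ChIP-seq of LX-2 cells was mapped to hg38 with Chromap by the authors, who ran the ENCODE IDR (irreproducible discovery rate) pipeline on replicates 1 and 3. In the deposited list of 21113 peaks, the score is the authors' scaled IDR, up to 1000, signal values and −log10 q-values are those of the peak caller, and each row ends with the summit's distance from the peak's start. The layout of the list gave these meanings. The peak caller is not given in the sources used here. Depth per sample is unknown, and the inputs and single replicates were not analysed here.

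The annotation was GENCODE release 44 on hg38. Every gene symbol counted once. The sequences of some peaks are not reported here. Motif matches on either strand counted if they lay within 100 bp of a summit. The members, classes and lists were chosen with earlier results of these data known. Genes described peak by peak were those with a summit within 2.5 kb of a TSS, the 3 MMP, 3 ADAMTS and 2 TIMP genes with most peaks, and a fixed set (MMP1, MMP2, MMP3, MMP9, MMP13, MMP14, MMP19, TIMP1 to TIMP4, ADAMTS1, ADAMTS2, ADAMTS4, ADAMTS5, ADAMTS12 and ADAMTS14); the values of other members, such as ADAMTS18, were picked after they were seen. No test was run, as there is 1 condition and 1 list. Alternatives changed the window, the peaks, the TSSs and the motif. The code was tested on simulated data. Python 3.11.15, scipy 1.17.1 and matplotlib 3.10.9 were used.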

Additional observations from a re-analysis of the deposited data

How the results depend on the processing

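No paired analysis was possible because replicates 1 and 3 were combined, and for the same reason no replicate could be left out. Of 76 alternatives over 9 results, 44 gave a value within the interval of the value reported, or a count within 1.5 times of it, and 32 did not. The window decided most. With gene record or 100 kb, 82.6% of the 46 genes had a peak (ADAMTS 89.5%, TIMP 100%, other coding genes 72.0%, 133 peaks). With 10 kb, the shares were 32.6% (MMP 21.7%, TIMP 25%, others 34.0%), with the gene record alone 30.4% (MMP 17.4%, TIMP 25%, others 24.97%, 56 peaks), and within 2.5 kb of a TSS 13.0% (MMP 4.35%, ADAMTS 21.1%, TIMP 25%, others 16.7%, 8 peaks). The share of the 46 genes was thus below that of the others at 10 kb and at 2.5 kb and above it at 50 kb, at 100 kb and in the gene record. With a peak counted only for the nearest coding TSS it was 39.1% (MMP 26.1%, others 32.8%). With peaks above the median signal value it was 47.8% (MMP 43.5%, others 38.8%, 50 peaks). For the others alone, 1 TSS per gene gave 53.5%, the highest IDR score 48.8% and genes between the length quartiles of the members 57.7%. With the highest IDR score the median signal value was 99.2 in the 66 of the 87 peaks that had it (84.5 for all peaks with that score). The TEAD share was 46.0% with the 6-base motif, an alternative added after the data were seen, against 46.8% of all peaks. Under the 5 planned ones it was 7.58 to 19.5%, against 20.1 to 28.0% of all peaks.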

Other observations

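Some members appear by name in gene lists that accompany the study, which were read for names only. MMP2, MMP14, MMP15, MMP17, ADAMTS2, ADAMTS5 and TIMP3 were in its list of loci that lost H3K27 acetylation, a mark of active enhancers and promoters, when the enzyme OGT was inhibited in LX-2 cells. Of these 7 genes, 6 had a TEAD4 peak, beside 1007 of the 1134 protein-coding symbols matched in that list (88.8%) and 56.2% of all protein-coding genes. ADAMTS5 had none, with its nearest summit at 55.4 kb. The peaks of MMP14, MMP15 and MMP17 lay nearer to a TSS of another gene, whereas all peaks of MMP2, ADAMTS2 and TIMP3 were nearest to the gene itself. The lists of RNA changes in LX-2 cells hold 499 or 500 entries each. In these, MMP24, ADAMTS1, ADAMTS2 and ADAMTS5 were named as lower after inhibition of OGT. Of these MMP24 and ADAMTS2 had a peak, beside 76.3% of the protein-coding symbols matched in that list. MMP1, MMP11 and ADAMTS13 were named as higher, and of these MMP1 had a peak, beside 61.5%. After knockdown of OGT, TIMP3 was named as lower and MMP1 and ADAMTS12 as higher. Each of them had a peak, beside 71.0% of the matched symbols in the list of lower genes and 66.25% in that of higher genes. No test was run on these overlaps.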
